A study of Mus musculus with 12 samples.

Results

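The 47 genes described here build the machinery of DNA replication and mitosis, and they were taken by name from a fixed list. All 47 were among the 46095 gene symbols counted in mouse renal cortex. Of them, 24 serve S phase (the S-phase members), 22 serve mitosis (the mitotic members), and Ccnd1, the cyclin that acts in G1 before S phase, stands apart. The tested set of 17530 genes held 46 of them: 23 S-phase members, 22 mitotic members and Ccnd1. Cdc45, which completes the active helicase, had 0 to 12 counts per library and was not tested.

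RNA-seq libraries came from 3 groups of C57BL/6 mice, all labelled as 12 weeks old, with 4 libraries in each. NC is the normal control, DN is diabetic nephropathy, the kidney damage that diabetes brings, and DN+NaB is the same disease under treatment with sodium butyrate, a fatty acid salt that gut bacteria produce and that inhibits histone deacetylases. How diabetes was induced, and the dose, route and length of butyrate treatment, are not given in the labels. Since the labels match no library to a given mouse, the p-values reflect only the spread among these libraries, which may be technical.

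Total counts ran from 58394975 to 70674015 per library. The tissue label names renal cortex and the extraction protocol names prefrontal cortex. Lrp2, the scavenger receptor of the proximal tubule, was abundant in every library and Snap25, a neuronal protein, had no count in any. Other brain markers were detected: 4 of the 6 on the list were tested. The 6 summed to 16.0 to 24.6 CPM per library, of which Mbp made up 97.3%. The 8 markers of the proximal tubule summed to 21206 to 36343 CPM. Replicate 4 of NC stood apart from the other NC libraries for the genes described here and, to a degree given below, over the whole table. Counts and calls of the main test, edgeR, that change without this library are given both ways. Counts at an unadjusted p, from DESeq2 or of groups that do not overlap are given only with it.

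Cells that are about to divide first license their origins: the origin recognition complex, Cdc6 and Cdt1 load the ring of MCM proteins, which becomes the helicase that opens the double strand. E2F factors, released from the retinoblastoma protein by the G1 cyclins and cyclin E, switch on these genes, and a later programme that acts through the CHR promoter element and CCAAT boxes switches on the mitotic genes. Few cells divide in a healthy adult kidney, and tubule cells can enter the cycle again after injury.

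Promoters of some of the members hold short words of these programmes, and 4 are shown because their genes carry the results below: Mcm6 and Mcm5, S-phase members that were lower in DN, Cdk1, the mitotic member that was lower in DN, and Mki67, which gave the largest part of the summed mitotic signal. Each line holds the 250 bases before the annotated start in RefSeq on GRCm38.p6, 5′ to 3′ on the strand of the gene. Capitals mark E2F words (TTTCCCGC, TTTCGCGC, TTTGCCGC or TTTGGCGC), CHR words (TTTGAA or TTCGAA) and CCAAT boxes (CCAAT), each on either strand; words that overlap form 1 run of capitals. Mcm6 lies on the minus strand at chr1:128359706-128359955, Mcm5 on the plus strand at chr8:75109259-75109508, Cdk1 on the minus strand at chr10:69352913-69353162 and Mki67 on the minus strand at chr7:135716380-135716629.
Mcm6: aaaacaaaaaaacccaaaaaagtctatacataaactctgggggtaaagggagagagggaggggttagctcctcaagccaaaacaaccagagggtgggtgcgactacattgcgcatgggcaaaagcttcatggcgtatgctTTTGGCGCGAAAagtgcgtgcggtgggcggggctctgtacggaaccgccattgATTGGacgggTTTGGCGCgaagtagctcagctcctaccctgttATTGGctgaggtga
Mcm5: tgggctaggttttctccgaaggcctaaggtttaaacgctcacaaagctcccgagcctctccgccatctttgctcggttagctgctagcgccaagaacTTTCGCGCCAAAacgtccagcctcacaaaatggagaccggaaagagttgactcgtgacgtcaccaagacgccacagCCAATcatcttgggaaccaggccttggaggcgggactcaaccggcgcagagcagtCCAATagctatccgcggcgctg
Cdk1: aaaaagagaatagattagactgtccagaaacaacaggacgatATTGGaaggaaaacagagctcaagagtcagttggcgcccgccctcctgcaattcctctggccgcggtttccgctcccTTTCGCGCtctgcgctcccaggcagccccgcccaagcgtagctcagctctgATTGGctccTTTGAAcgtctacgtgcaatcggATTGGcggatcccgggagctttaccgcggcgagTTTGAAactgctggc
Mki67: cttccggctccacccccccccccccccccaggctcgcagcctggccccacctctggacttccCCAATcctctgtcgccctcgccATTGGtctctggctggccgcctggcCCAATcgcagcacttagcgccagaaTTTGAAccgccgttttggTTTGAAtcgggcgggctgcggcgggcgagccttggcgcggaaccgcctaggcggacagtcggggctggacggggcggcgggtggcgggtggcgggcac
The Mcm6 and Mcm5 windows hold E2F words and no CHR word, the Mki67 window holds CHR words and no E2F word, and the Cdk1 window holds both.

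The same search was run over windows of 250 bases before and 50 after the start. RefSeq promoters were found for 19 of the 24 S-phase members (21 windows) and 17 of the 22 mitotic members (18 windows). An E2F word was in 8 of 21 S-phase windows (38.1%) and in 1 of 18 mitotic windows (5.56%), that of Cdk1, beside 3.49% of the 14080 windows of tested protein-coding genes and 2.26% of all 32851 windows. A CHR word was in 3 of 21 S-phase windows (14.3%) and 14 of 18 mitotic windows (77.8%), beside 13.9% of the windows of tested coding genes and 19.2% of all windows. A CCAAT box was in 66.7% of S-phase and 88.9% of mitotic windows, beside 37.1% for tested coding genes and 37.4% for all windows. All 14 mitotic windows with a CHR word also held a CCAAT box. These matches describe letters only, and a window without a word says nothing of the factor.

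Levels can be set between genes only per length, here as CPM (counts scaled to library size) divided by the merged exon length of GENCODE M21. In NC, Pcna, the sliding clamp of the replication fork, had the highest level of the S-phase members, 11.4 ± 2.09 CPM per kb (SD, n = 4). Mcm6 followed at 6.54 ± 0.572 CPM per kb and Mcm7 at 6.45 ± 0.801 CPM per kb, which did not differ beyond their spread. Mcm2 (4.69 ± 0.436 CPM per kb) and Mcm5 (4.01 ± 0.277 CPM per kb) came after them. The mitotic members ran from 3.34 ± 1.70 CPM per kb for Cdc20, an activator of the anaphase-promoting complex, to 0.173 ± 0.119 CPM per kb for Cenpe, a kinetochore motor. Ccnd1 stood far above both classes at 110.8 ± 28.7 CPM per kb. In DN, Mcm6 stood at 3.22 ± 0.308 CPM per kb and Mcm7 at 6.45 ± 1.67 CPM per kb. The exon length may not be the one the authors counted over, since their annotation is not given in the sources used here.

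In DN, 4 S-phase members were lower than in NC and none was higher: Mcm3, Mcm5 and Mcm6, subunits of the helicase ring, and its loader Cdc6. That is 4 of 23 tested, beside 4.42% of all tested genes called lower in this comparison and 3.82% called higher. A gene was called at an adjusted p under 0.05 in edgeR's quasi-likelihood test, adjusted over all tested genes by Benjamini-Hochberg. The median log2 fold change of the 23 was -0.13, beside 0.01 over all tested genes, and 19 of the 23 did not pass the test. This small median moved with single libraries: it was -0.04 without NC replicate 4, -0.22 without NC replicate 2, -0.23 without DN replicate 3 and -0.37 without DN replicate 4. In bulk tissue, fewer dividing cells and less RNA per cell cannot be told apart.

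Mcm6 showed the clearest separation. Its level was 31.4, 27.5, 29.5 and 33.7 CPM in NC, 17.1, 14.2, 13.9 and 15.0 CPM in DN, and 12.2, 15.4, 11.2 and 12.1 CPM in DN+NaB. Every NC library lay above every library of the other groups, whose ranges overlap. Mcm6 was 0.493-fold its NC level in DN, a log2 fold change of -1.02 ± 0.13 (SE; edgeR, adjusted p = 2.0e-04). In DN+NaB it was 0.417-fold its NC level, a log2 fold change of -1.26 ± 0.13 (edgeR, adjusted p = 2.3e-05). It was called in both comparisons under all 20 alternative settings, NC replicate 4 left out among them.

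The other subunits of the ring did not move with Mcm6 alike. Mcm3 was 11.8, 9.98, 9.94 and 15.4 CPM in NC and 6.05, 7.02, 8.75 and 8.23 CPM in DN, with no overlap and a log2 fold change of -0.65 ± 0.17 (edgeR, adjusted p = 0.031). Mcm5 was 16.9, 14.4, 16.2 and 16.5 CPM in NC and 9.12, 10.5, 13.8 and 11.0 CPM in DN, again with no overlap, and its log2 fold change was -0.53 ± 0.15 (edgeR, adjusted p = 0.041). Without NC replicate 4 neither was called, with an adjusted p in edgeR of 0.064 for Mcm3 and 0.055 for Mcm5. Mcm5 was called under 10 of 20 alternatives and Mcm3 under 15.

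Mcm2, Mcm4 and Mcm7, the remaining subunits, did not pass the test in either comparison with NC. Mcm2 was 32.2, 29.1, 32.6 and 36.5 CPM in NC, 24.5, 30.4, 39.3 and 22.3 CPM in DN, and 36.4, 35.9, 31.7 and 29.1 CPM in DN+NaB. The DN values of Mcm2 spread on both sides of the NC range, and the log2 fold change was -0.16 ± 0.16 (edgeR, adjusted p = 0.62). For Mcm7 the means in NC and DN were both 28.5 CPM, and for Mcm4 they were 9.47 ± 2.35 CPM and 9.03 ± 1.13 CPM (SD, n = 4).

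A ratio of subunits does not depend on how libraries are scaled. The ratio of Mcm6 to Mcm2 ran from 0.904 to 0.977 in NC, from 0.354 to 0.698 in DN, and in DN+NaB from 0.335 to 0.428, so NC overlapped with neither. The ratio of Mcm7 to Mcm2 ran from 0.801 to 0.945 in NC and from 0.781 to 1.18 in DN, and these ranges overlap. The ratios of Mcm3 and Mcm5 to Mcm2 overlapped between NC and DN as well, through DN replicate 4, where they were 0.369 and 0.492. In DN+NaB both lay wholly below NC. That of Mcm3 ran from 0.1775 to 0.244 in DN+NaB and from 0.305 to 0.421 in NC. That of Mcm5 ran from 0.317 to 0.375 in DN+NaB and from 0.452 to 0.526 in NC. The ratios of Mcm4 and Mcm7 to Mcm2 overlapped between NC and DN+NaB. These ratios were formed after the levels were seen and are given with no test.

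**Figure D1:**
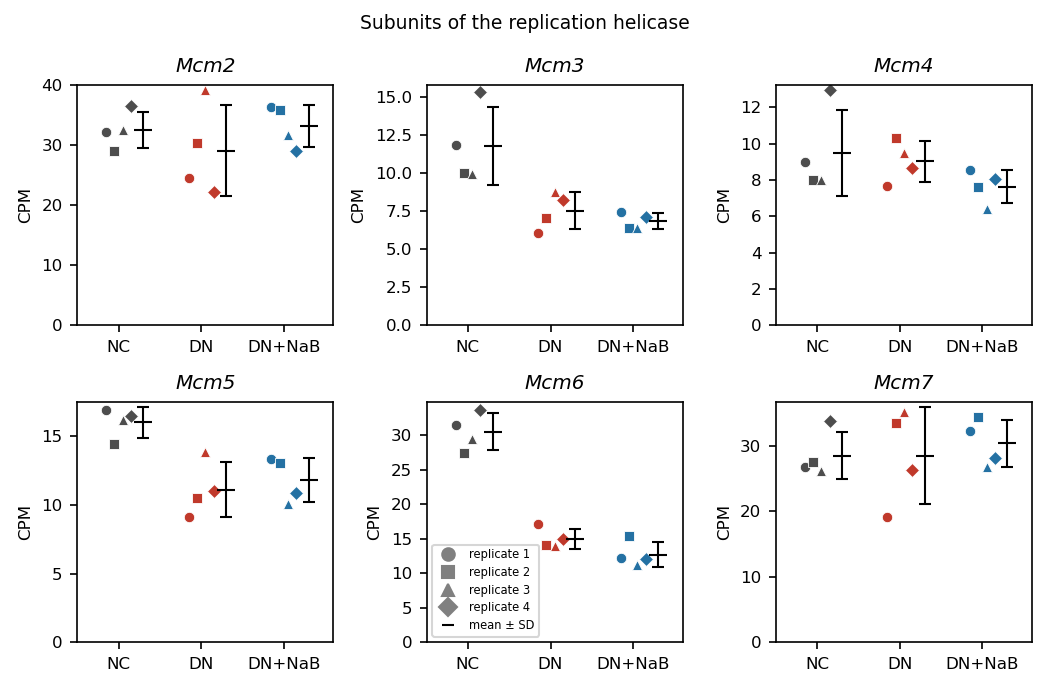
CPM of the 6 subunits of the replication helicase by library in NC, DN and DN+NaB; each point is 1 library, its shape the replicate number, and bars give the mean ± SD of 4 libraries. The NC libraries of Mcm6 lie between 27.5 and 33.7 CPM, above all libraries of DN and DN+NaB, while the groups of Mcm2, Mcm4 and Mcm7 overlap.

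Of the loading factors, Cdc6 was lower in DN and Cdt1 did not pass the test. Cdc6 was 1.44, 2.14, 1.55 and 2.01 CPM in NC, 0.486, 0.792, 0.606 and 0.726 CPM in DN, and 0.902, 0.646, 0.329 and 0.904 CPM in DN+NaB. All NC libraries exceeded all others, and the log2 fold change was -1.45 ± 0.32 in DN (edgeR, adjusted p = 0.013) and -1.36 ± 0.32 in DN+NaB (edgeR, adjusted p = 0.011). Like Mcm6, Cdc6 was called in both comparisons under all 20 alternatives. Cdt1, its partner in loading, was 7.98, 9.32, 8.71 and 16.6 CPM in NC and 7.49, 16.2, 23.0 and 10.9 CPM in DN. The spread in DN covered the NC range, and the log2 fold change was 0.44 ± 0.30 (edgeR, adjusted p = 0.45).

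E2f1, the factor that drives S-phase genes, was 6.38, 6.5, 6.22 and 7.28 CPM in NC, 4.48, 5.28, 5.22 and 3.08 CPM in DN, and 4.99, 3.68, 3.80 and 4.34 CPM in DN+NaB. No NC library overlapped with the rest, yet the DN comparison did not pass the test over all genes, with a log2 fold change of -0.55 ± 0.19 (edgeR, adjusted p = 0.092). E2f1 was called lower in DN under 2 of 20 alternatives, DESeq2 and library size only. In all, 6 of 23 S-phase members had DN libraries wholly below NC, beside 7.49% of all tested genes.

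Ccne1, cyclin E1, was 0.566, 0.604, 0.693 and 1.08 CPM in NC, 0.423, 0.493, 0.515 and 0.517 CPM in DN, and 0.408, 0.0993, 0.411 and 0.244 CPM in DN+NaB. Each group of Ccne1 lay wholly below the one before, on 6 to 78 counts per library. Its log2 fold change was -0.60 ± 0.40 in DN against NC (edgeR, adjusted p = 0.43) and -0.74 ± 0.42 in DN+NaB against DN (edgeR, adjusted p = 0.60), so neither step passed. Ccne2, the second cyclin E, ran from 0.0851 to 1.33 CPM over the 12 libraries and spread widely in DN and DN+NaB. In NC the spread came from replicate 4, at 1.33 CPM, while the other NC libraries lay between 0.340 and 0.429 CPM.

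The genes of the fork and of nucleotide supply gave no call in DN. Pcna was 22.4, 25.6, 27.4 and 34.3 CPM in NC, 26.0, 30.0, 25.3 and 31.3 CPM in DN, and 24.3, 28.0, 25.6 and 28.1 CPM in DN+NaB. The groups of Pcna overlap, and its log2 fold change was 0.04 ± 0.13 in DN and -0.05 ± 0.13 in DN+NaB, both against NC. Rrm1, the large subunit of ribonucleotide reductase, had a log2 fold change of 0.17 ± 0.15 in DN. For the polymerase genes Pola1 and Pole the values were -0.05 ± 0.44 and -0.65 ± 0.28, and for the chromatin assembly subunits Chaf1a and Chaf1b they were -0.54 ± 0.20 and -0.57 ± 0.25. Of the members of the GINS complex and Mcm10, which join the helicase at firing, none had a log2 fold change beyond 0.13 in size in DN.

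The mitotic members moved less evenly between libraries. In DN, 1 of 22 was lower in edgeR, Cdk1, the kinase that starts mitosis, beside the 4.42% of all tested genes, and none was higher. DESeq2 called 5 of 22 lower, Cdk1, Mki67, Cenpf, Nusap1 and Prc1, beside 6.35% of all tested genes. Cdk1 was 3.83, 3.90, 2.55 and 6.73 CPM in NC, 1.43, 2.73, 1.15 and 1.40 CPM in DN, and 2.48, 0.844, 1.02 and 1.45 CPM in DN+NaB. DN replicate 2 lay above NC replicate 3, so the NC and DN ranges overlap. The log2 fold change was -1.34 ± 0.39 in DN (edgeR, adjusted p = 0.048). Without NC replicate 4 it was -1.04 with an adjusted p of 0.14 in edgeR, and Cdk1 was called under 10 of 20 alternatives.

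All 22 mitotic members had a negative log2 fold change in DN, with a median of -1.02, beside 48.2% of all tested genes below 0. At an unadjusted p under 0.05, 12 of the 22 stood lower, beside 11.2% of all tested genes. The members next to Cdk1 were Nusap1, which binds spindle microtubules (-1.0 ± 0.32, edgeR adjusted p = 0.070), and Prc1, which bundles them at the midzone (-1.41 ± 0.46, edgeR adjusted p = 0.084). Mki67, the proliferation antigen Ki-67 that coats mitotic chromosomes, had a log2 fold change of -1.73 ± 0.59 (edgeR, adjusted p = 0.10), and Cenpe one of -1.24 ± 0.45 (edgeR, adjusted p = 0.11). The standard errors of the mitotic members were wider than those of the S-phase members, with medians of 0.46 and 0.21 on the log2 scale.

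The values of single libraries spread widely within each group. Mki67 was 9.31, 11.6, 8.49 and 32.0 CPM in NC, 3.93, 5.91, 1.67 and 7.02 CPM in DN, and 4.32, 0.927, 1.99 and 4.42 CPM in DN+NaB. Top2a, the topoisomerase that untangles sister chromatids, was 5.08, 6.13, 5.77 and 20.4 CPM in NC, 3.12, 5.12, 1.17 and 5.13 CPM in DN, and 2.48, 0.464, 2.17 and 2.83 CPM in DN+NaB. Ccnb1, the cyclin partner of Cdk1, was 1.5, 1.52, 1.46 and 4.22 CPM in NC, 0.846, 2.41, 0.318 and 0.694 CPM in DN, and 1.53, 0.381, 0.757 and 0.603 CPM in DN+NaB. In each of these genes NC replicate 4 was the highest of the 12 libraries, DN replicate 3 was the lowest of DN and DN+NaB replicate 2 the lowest of DN+NaB.

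The summed level of the 22 mitotic members was 70.8, 80.4, 66.3 and 192 CPM in NC, 45.2, 79.7, 28.7 and 51.3 CPM in DN, and 58.7, 20.002, 29.2 and 37.1 CPM in DN+NaB. DN replicate 2 thus lay within the range of NC replicates 1 to 3, and the other DN libraries and all DN+NaB libraries lay below it. The summed level of the 24 S-phase members was 242, 236, 245 and 321 CPM in NC, 193, 251, 259 and 215 CPM in DN, and 233, 227, 204 and 214 CPM in DN+NaB. For the S-phase sum NC and DN overlap, and all DN+NaB libraries lie below NC.

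**Figure D2:**
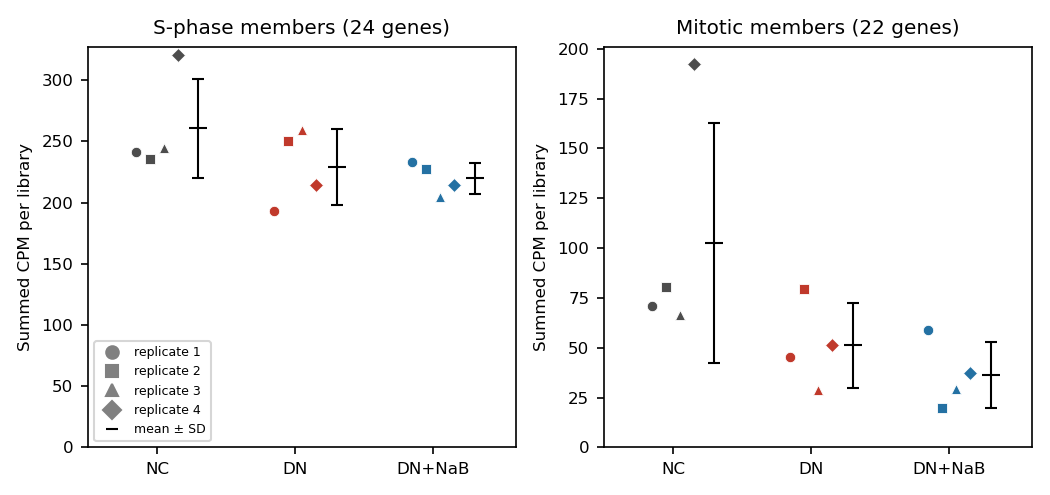
Summed CPM of the 24 S-phase members (left) and the 22 mitotic members (right) by library; point shapes give replicate numbers and bars the mean ± SD of 4 libraries. NC replicate 4 is the highest library on both sides, at 321 CPM and 192 CPM.

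NC replicate 4 was the highest of all 12 libraries for 22 of 22 mitotic members and for 14 of 23 S-phase members. Its ratio to the mean of the other NC libraries had a median of 2.52 over the mitotic members (1.93 to 4.78) and 1.39 over the S-phase members. This ratio exceeded 1.5 for 22 of 22 mitotic members and 9 of 23 S-phase members, beside 13.7% of all tested genes. In the same library Ccnd1 was the lowest of the 12, at 326 CPM. Also lowest there were Cdkn1a (4.42 CPM), the inhibitor p21, and Cdkn1c (21 CPM), the inhibitor p57. These 2 do not stand for all 7 tested inhibitors of cyclin-dependent kinases. The mean log2 CPM of the 7 was 2.58 there, beside 2.56, 2.68 and 2.61 in NC replicates 1 to 3.

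The mitotic members also varied together in the other groups. Within DN, replicate 2 was the highest library for 19 of 22 and replicate 3 the lowest for 18 of 22. Within DN+NaB, replicate 1 was the highest for 16 and replicate 2 the lowest for 19. The S-phase members did not share this order in DN: replicate 3, the lowest for most mitotic members, was the highest DN library for 10 of 23 S-phase members. The median coefficient of variation of the mitotic members was 55.5% among the NC, 44.9% among the DN and 51.5% among the DN+NaB libraries, beside 23.7%, 31.1% and 23.9% for the 5740 tested genes of a like mean level. For the S-phase members it was 21.5%, 21.9% and 13.6%.

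**Figure D3:**
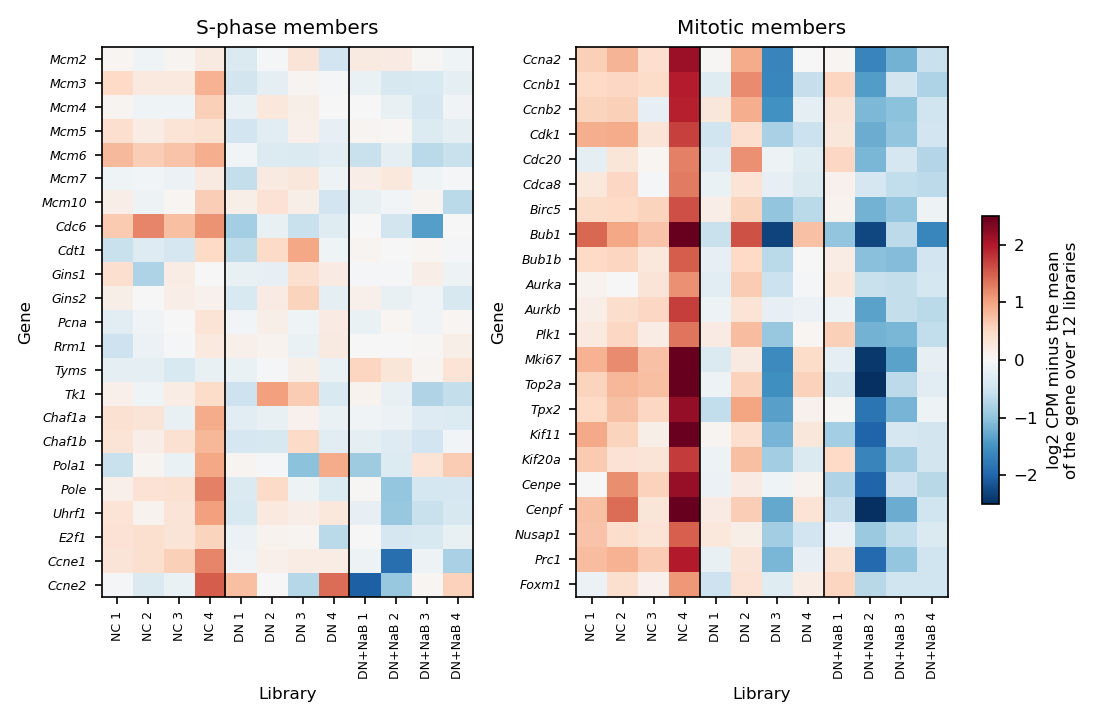
Level of each tested S-phase member (left) and mitotic member (right) in the 12 libraries, as log2 CPM minus the mean of that gene over all libraries; rows are genes, columns are libraries, red is above and blue below the mean. The column of NC replicate 4 is red for all 22 mitotic members, and the column of DN+NaB replicate 2 is blue for them.

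Leaving out NC replicate 4 changed the counts in DN. Of the S-phase members 2 were then lower, Mcm6 and Cdc6, and of the mitotic members none, beside 4.26% of all tested genes called lower without that library. The median log2 fold change of the mitotic members went from -1.02 to -0.56, and 21 of 22 stayed negative. The count for the S-phase members was also 2 when replicate 1 of NC or replicate 1 or 2 of DN was left out. The mitotic count was also 0 when replicate 1 or 2 of NC, 1, 3 or 4 of DN, or 3 or 4 of DN+NaB was left out. Over all tested genes, calls in either direction ran from 942 to 1976 with 1 library left out, beside 1443 with all.

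No member passed when DN+NaB was set against DN, the comparison that addresses butyrate in diseased mice. Of 23 S-phase and 22 mitotic members, 0 and 0 passed in edgeR beside 0.0114% of all tested genes lower and 0.0114% higher. In DESeq2 they were 0 and 0 as well, beside 0.987% of all tested genes lower and 0.479% higher. At an unadjusted p under 0.05 there were 2 S-phase members and 1 mitotic member, beside 9.85% of all tested genes in either direction. The median log2 fold change was -0.14 for the S-phase and -0.54 for the mitotic members, and all 22 mitotic members were negative, beside 52.8% of all tested genes. Single libraries weighed on these values. Without DN replicate 2, 19 of the 22 were negative, all but Ccnb1, Cdk1 and Kif20a, and the mitotic median was -0.18; it was -0.35 without DN+NaB replicate 2 and -0.88 without DN+NaB replicate 1. The S-phase median was -0.05 without DN replicate 3 and -0.21 without DN replicate 4. A gene that missed the threshold is not thereby shown to be equal in the groups, since the standard errors of the mitotic members had a median of 0.47 on the log2 scale.

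The S-phase members nearest to the threshold were Tyms, thymidylate synthase, and Uhrf1, which brings the maintenance DNA methyltransferase to new strands. Tyms was 11.7, 12.7, 14.5 and 11.7 CPM in DN and 18.9, 16.0, 13.8 and 16.7 CPM in DN+NaB, and only DN+NaB replicate 3 reached into the DN range. Its log2 fold change was 0.37 ± 0.13 (edgeR, adjusted p = 0.35). Uhrf1 was 5.0, 7.71, 7.34 and 7.83 CPM in DN and 5.65, 3.38, 4.43 and 4.92 CPM in DN+NaB, with a log2 fold change of -0.60 ± 0.23 (edgeR, adjusted p = 0.41). For Tk1, thymidine kinase, the log2 fold change was -0.66 ± 0.31 (edgeR, adjusted p = 0.52), and for Mcm6 it was -0.24 ± 0.13 (edgeR, adjusted p = 0.57).

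Among the mitotic members, Bub1, a kinase of the spindle checkpoint, came first with a log2 fold change of -2.13 ± 0.91 (edgeR, adjusted p = 0.47). It rested on few reads: 8, 38, 1 and 22 counts in DN and 5, 1, 7 and 3 counts in DN+NaB. Cenpe followed at 0.564, 0.722, 0.575 and 0.662 CPM in DN and 0.357, 0.132, 0.428 and 0.373 CPM in DN+NaB. Cenpe was the mitotic member whose groups did not overlap in this comparison, beside 2.44% of all tested genes with DN+NaB wholly lower. Its log2 fold change was -0.96 ± 0.47 (edgeR, adjusted p = 0.53), and those of the kinetochore protein Cenpf, the kinase Aurkb and the spindle motor Kif11 were -1.23 ± 0.70, -0.62 ± 0.36 and -0.86 ± 0.54.

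Set against NC, the DN+NaB group gave the most calls. Of 23 S-phase members 8 were lower, beside 8.94% of all tested genes, and Tyms was higher, beside 6.62%. Of 22 mitotic members 14 were lower and none higher. The medians were -0.43 and -1.47 on the log2 scale, beside -0.01 over all tested genes, and all 22 mitotic members were negative, beside 50.8% of all tested genes. The S-phase median was -0.25 without NC replicate 4. DN+NaB lay wholly below NC for 9 S-phase and 14 mitotic members, beside 13.9% of all tested genes. This comparison shares its NC libraries with that of DN against NC, so the counts are not independent of each other, and a larger count here is not a test of butyrate.

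The S-phase members that were lower are the ring subunits Mcm3 and Mcm6, Cdc6, E2f1, Ccne1, Uhrf1, the leading-strand polymerase Pole and the chromatin assembly subunit Chaf1a. Mcm3 was 7.47, 6.37, 6.40 and 7.11 CPM in DN+NaB, below all NC libraries, a log2 fold change of -0.78 ± 0.17 (edgeR, adjusted p = 0.0067). Uhrf1 was 8.27, 6.95, 8.19 and 13.3 CPM in NC, again above all DN+NaB libraries, and its log2 fold change was -1.0 ± 0.23 (edgeR, adjusted p = 0.0093). Mcm3, Mcm6, Cdc6 and Uhrf1 were lower without NC replicate 4 as well. The rest were not: the adjusted p in edgeR then was 0.085 for Pole, 0.056 for E2f1, and 0.117 for both Chaf1a and Ccne1. With all libraries their log2 fold changes were -1.01 ± 0.28, -0.65 ± 0.19, -0.64 ± 0.20 and -1.34 ± 0.41.

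Tyms was the member that rose. It was 11.2, 11.0, 10.1 and 11.5 CPM in NC and 18.9, 16.0, 13.8 and 16.7 CPM in DN+NaB, 1.5-fold higher with no overlap. The log2 fold change was 0.58 ± 0.13 (edgeR, adjusted p = 0.0071), and it was called under all 20 alternatives, among them the one without NC replicate 4, where 5.02% of all tested genes were called higher. Its DN libraries, from 11.7 to 14.5 CPM, also lay above all NC libraries, as did those of 5.86% of all tested genes, with a log2 fold change of 0.21 ± 0.13 (edgeR, adjusted p = 0.36).

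The 14 mitotic members that were lower belong to several parts of the division machinery. Cdk1 and its partner Ccna2, cyclin A2, had log2 fold changes of -1.55 ± 0.39 (edgeR, adjusted p = 0.016) and -1.89 ± 0.55 (edgeR, adjusted p = 0.035). Of the chromosomal passenger complex, the kinase Aurkb had -1.50 ± 0.36 (edgeR, adjusted p = 0.011), survivin (Birc5) -1.34 ± 0.42 and borealin (Cdca8) -0.98 ± 0.31. Of the checkpoint and kinetochore, Cenpe had -2.20 ± 0.47 (edgeR, adjusted p = 0.0059), Cenpf -2.98 ± 0.72 (edgeR, adjusted p = 0.014), Bub1b -1.32 ± 0.36 and Bub1 -3.59 ± 0.91. Bub1 had 39, 27, 23 and 131 counts in NC against at most 7 in a DN+NaB library.

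Of the spindle, the motor Kif11 had -2.21 ± 0.55, Nusap1 -1.32 ± 0.32 (edgeR, adjusted p = 0.013) and Prc1 -1.73 ± 0.47. Of the chromosome proteins, Mki67 had -2.39 ± 0.61 (edgeR, adjusted p = 0.021) and Top2a -2.23 ± 0.63 (edgeR, adjusted p = 0.034). The 8 that did not pass were Ccnb1, Ccnb2, Cdc20, Aurka, Plk1, Tpx2, Kif20a and Foxm1, the factor that drives late cell cycle genes. Ccnb1 had -1.41 ± 0.60 (edgeR, adjusted p = 0.13) and Foxm1 -0.64 ± 0.32 (edgeR, adjusted p = 0.20).

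**Figure D4:**
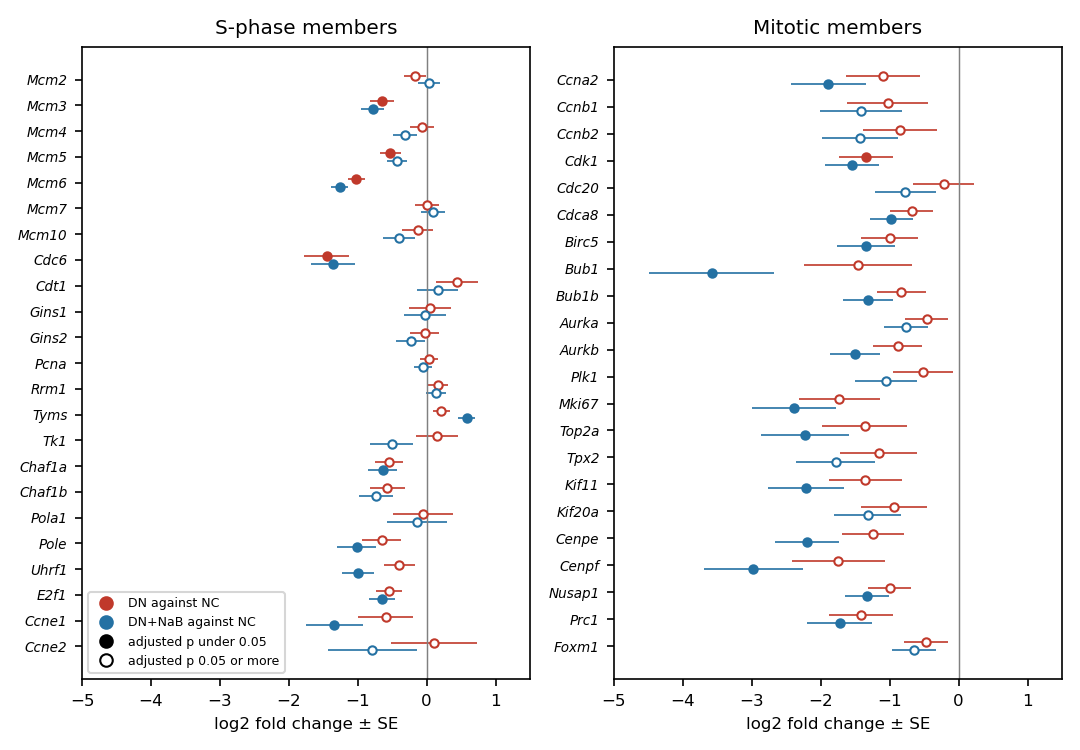
Log2 fold changes ± SE of the 23 tested S-phase members (left) and 22 mitotic members (right) for DN against NC (red) and DN+NaB against NC (blue), which share the NC libraries; filled points have an adjusted p under 0.05. The S-phase members lie on both sides of 0, with Mcm3, Mcm6 and Cdc6 filled in both colours, and all mitotic members lie below 0.

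Without NC replicate 4, 4 mitotic members were lower in DN+NaB than in NC: Aurkb, Cenpe, Cenpf and Nusap1, beside 7.46% of all tested genes. The median log2 fold change was then -1.03 in place of -1.47, and all 22 stayed negative. Aurkb was 1.82, 2.23 and 2.35 CPM in NC replicates 1 to 3 and 1.5, 0.629, 1.07 and 1.0 CPM in DN+NaB, so the groups did not overlap without that library. Cenpe was 0.628, 1.44 and 0.949 CPM in the same NC libraries, all above DN+NaB. Leaving out DN+NaB replicate 2, 3 or 4 gave 6, 7 and 7 lower mitotic members. For the S-phase members the count was 4 when replicate 4 of NC or replicate 2 or 4 of DN+NaB was left out, and 5 when replicate 1 or 2 of NC or 3 of DN+NaB was. Calls over all tested genes moved as well. In either direction they numbered 2729 with all libraries and 1833 without DN+NaB replicate 2, the lowest. The highest number with 1 library left out was 3716.

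**Figure D5:**
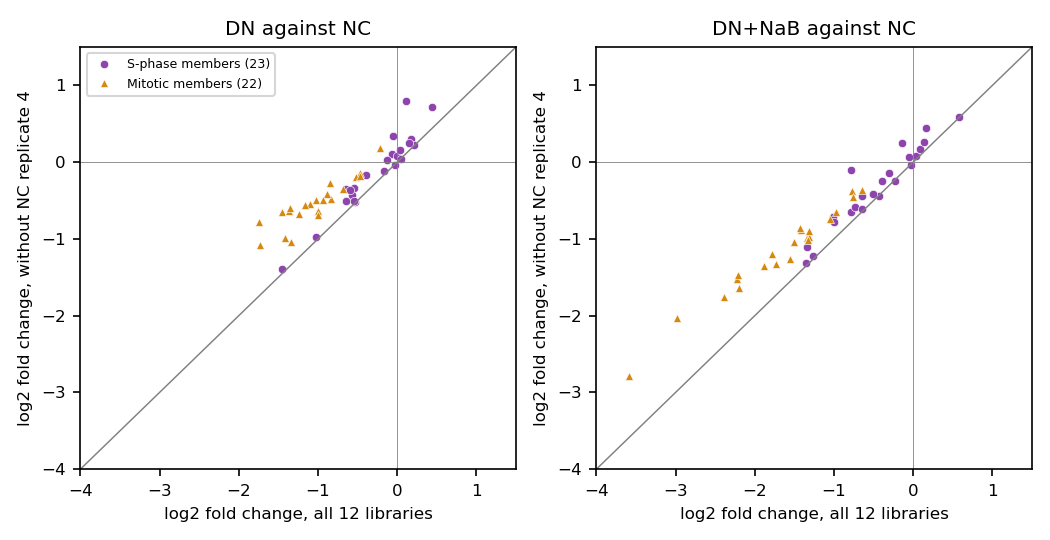
Log2 fold change of each tested S-phase member (circles) and mitotic member (triangles) with all 12 libraries (horizontal axis) and without NC replicate 4 (vertical axis), for DN against NC (left) and DN+NaB against NC (right); the diagonal marks equal values. The mitotic members lie above the diagonal, with medians of -0.56 (left) and -1.03 (right) without that library, against -1.02 and -1.47 with it.

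Ccnd1 was 626, 540, 596 and 326 CPM in NC, 775, 786, 743 and 580 CPM in DN, and 731, 836, 497 and 693 CPM in DN+NaB. NC replicate 4 was far below the rest, and DN replicates 1 to 3 lay above all NC libraries while DN replicate 4 lay below NC replicates 1 and 3. The log2 fold change was 0.47 ± 0.20 in DN (edgeR, adjusted p = 0.19) and 0.40 ± 0.20 in DN+NaB (edgeR, adjusted p = 0.19), so neither passed. These were 0.29 and 0.22 without NC replicate 4. GENCODE M21 places 23.4% of its exon bases over another gene on the opposite strand, and the treatment of strand in counting is not given in the sources used here. In all, 17 of the 47 members share exon bases with another gene, 8 of them over 10%: Mcm7, Gins2, Chaf1a, Ccne2, Ccna2, Kif20a, Prc1 and Ccnd1.

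Other genes of the same pathways were set in lists that hold no member. Of 38 other replication genes, 2 were lower in DN than in NC and 1 was higher, shares near the 4.42% and 3.82% of all tested genes. Clspn, the checkpoint adaptor claspin, was 1.29, 1.30, 1.22 and 2.11 CPM in NC and 0.360, 0.458, 0.257 and 0.387 CPM in DN, a log2 fold change of -2.01 ± 0.45 (edgeR, adjusted p = 0.013). Rrm2, the small subunit of ribonucleotide reductase, was 8.68, 10.4, 7.91 and 17.7 CPM in NC and 3.29, 7.25, 2.41 and 3.97 CPM in DN, a log2 fold change of -1.40 ± 0.33 (edgeR, adjusted p = 0.018). Neither gene overlapped between these groups. Without NC replicate 4 Clspn was called (adjusted p in edgeR 0.040) and Rrm2 was not (0.054). Pold2, a subunit of the lagging-strand polymerase, had a log2 fold change of 0.55 ± 0.14 (edgeR, adjusted p = 0.025).

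In DN+NaB against NC, 9 of the 38 were lower and 1 was higher, beside 8.94% and 6.62% of all tested genes, led by Clspn, Rrm2, Timeless and Pole2. Without NC replicate 4, 6 were lower and 0 higher, beside 7.46% and 5.02%; Pold2, the gene no longer higher, then had an adjusted p of 0.057 in edgeR. Of 45 other mitosis genes, 1 was lower in DN, the spindle motor Kif15 (-2.62 ± 0.73, edgeR adjusted p = 0.041), a smaller share than the 4.42% of all tested genes. DESeq2 called 10 of the 45 lower, beside 6.35%, and without NC replicate 4 the count in edgeR was 0. In DN+NaB against NC 19 were lower, beside 8.94% of all tested genes, and 1, Cks2, was higher, and without NC replicate 4 the counts were 8 and 1, beside 7.46% and 5.02%. Ect2, which acts in cytokinesis, led them with -1.83 ± 0.31 (edgeR, adjusted p = 0.0014), and Aspm, Anln and Racgap1 followed at -2.59 ± 0.55, -2.21 ± 0.49 and -1.30 ± 0.29. The medians of the other mitosis genes were -1.0 in DN and -1.34 in DN+NaB, and those of the other replication genes -0.08 and -0.01.

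Of 21 genes that control G1, 3 were lower in DN and 1 was higher, beside 4.42% and 3.82% of all tested genes. Mycn was 3.98, 3.85, 3.61 and 4.05 CPM in NC, 0.846, 1.5, 1.57 and 1.26 CPM in DN, and 1.0, 1.29, 1.0 and 1.35 CPM in DN+NaB. This transcription factor of the Myc family did not overlap between NC and either group, with a log2 fold change of -1.58 ± 0.23 in DN (edgeR, adjusted p = 5.4e-04). The repressor E2f7 had -1.66 ± 0.30 (edgeR, adjusted p = 0.0034), the activator E2f2 -0.77 ± 0.21 (edgeR, adjusted p = 0.032), and the repressor E2f6 0.47 ± 0.12 (edgeR, adjusted p = 0.029). Between DN+NaB and NC, 5 of the 21 were lower and 2 higher in DN+NaB, beside 8.94% and 6.62%, again led by Mycn, E2f7, E2f2 and E2f6. Mycn, E2f7 and E2f2 were lower without NC replicate 4 in both comparisons. E2f6 was then not called in DN (adjusted p in edgeR 0.076), and the counts in DN+NaB were 3 lower and 1 higher.

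Of 7 tested inhibitors of cyclin-dependent kinases, Cdkn1c was higher in DN. It was 34.8, 38.2, 31.1 and 21 CPM in NC and 45.7, 47.9, 49.8 and 43.8 CPM in DN, with no overlap and a log2 fold change of 0.58 ± 0.16 (edgeR, adjusted p = 0.035). Cdkn1a was 8.45, 15.1, 13.6 and 4.42 CPM in NC, 13.0, 14.4, 18.5 and 45.7 CPM in DN, and 38.5, 31.9, 16.7 and 21 CPM in DN+NaB. DN replicate 4 held the highest value, and the log2 fold change was 1.14 ± 0.47 in DN (edgeR, adjusted p = 0.18) and 1.38 ± 0.47 in DN+NaB (edgeR, adjusted p = 0.072). Without DN replicate 4 the value in DN was 0.54, and with NC replicate 4 left out too it was 0.28. Against NC, Cdkn1a in DN+NaB was called under 4 of 20 alternatives, DESeq2 among them (adjusted p = 0.039). Of 16 targets of p53, 0 passed in any comparison in edgeR or DESeq2, with 1 at an unadjusted p under 0.05 in DN, beside 21.9% of all tested genes. Their smallest p values belonged to Eda2r in DN (1.14 ± 0.51, edgeR adjusted p = 0.21), Bax in DN+NaB against DN (0.22 ± 0.14) and Zmat3 in DN+NaB against NC (0.25 ± 0.14). No gene of these pathway lists passed in DN+NaB against DN, whether in edgeR or DESeq2, the smallest adjusted p in edgeR being 0.29 for Timeless.

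Markers of several cell types, immune and other, were called lower in DN+NaB than in NC. The summed level of 14 markers of T and NK cells ran from 19.8 to 34.3 CPM in NC, 7.52 to 25.0 CPM in DN and 3.3 to 4.89 CPM in DN+NaB, with Cd2 and Trbc2 at 0 in all libraries. Of the 11 tested, 2 were lower in DN than in NC, beside 4.42% of all tested genes, and 10 in DN+NaB than in NC, beside 8.94%. Without NC replicate 4, 12 were tested, and 3 were lower in DN, beside 4.26%, and 10 in DN+NaB, beside 7.46%. In DN+NaB against DN edgeR called 1 of the 11 lower, beside 0.0114%, and DESeq2 called 7, beside 0.987%. In NC replicate 4 the T and NK sum was the lowest of the NC libraries, at 19.8 CPM.

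Of 14 markers of macrophages and dendritic cells, 3 were lower in DN than in NC, beside 4.42% of all tested genes. In DN+NaB 9 were lower than in NC, beside 8.94%. Without NC replicate 4, 5 were lower in DN, beside 4.26%. Some went the other way in DN: 2 of the 14 lay wholly above NC, beside 5.86%, and DESeq2 called Cd74 and H2-Ab1 higher. In DN+NaB against DN, DESeq2 called these 2 genes lower, beside 0.987%, and edgeR called none. The sum of the 14 markers ran from 986 to 1358 CPM in NC, 1192 to 4267 CPM in DN and 366 to 1052 CPM in DN+NaB, and Cd74 made up 85.5% of it. Against NC, 1 of 4 tested B and plasma cell markers was lower in DN and 2 in DN+NaB, beside 4.42% and 8.94%. The 4 tested markers of neutrophils all had positive log2 fold changes against NC, with medians of 2.22 in DN and 0.28 in DN+NaB, and none was called in edgeR or DESeq2, with 2 in DN at an unadjusted p under 0.05. The summed neutrophil level was 15.1 CPM in DN replicate 4 and at most 2.96 CPM in any other library. The part of these cells in the results above was not tested.

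Markers of other cells gave calls as well. Of 10 endothelial markers 2 were lower in DN and 2 in DN+NaB, both against NC, beside 4.42% and 8.94% of all tested genes. Of 10 markers of fibroblasts and pericytes 3 were lower in DN and 4 in DN+NaB, beside the same shares. Without NC replicate 4 there were 2 in each, beside 4.26% and 7.46%. Of 8 markers of the proximal tubule none passed in DN in edgeR or DESeq2, with 1 at an unadjusted p under 0.05. Of 10 markers of injured or repairing tubule 3 were higher in DN and 3 in DN+NaB, beside 3.82% and 6.62%. Without NC replicate 4 there were 2 in each, where 5.02% of all tested genes were called higher in DN+NaB. The sum of the 10 injury markers, of which Spp1 made up 56.0%, ran from 1008 to 1198 CPM in NC. It ran from 1397 to 3687 CPM in DN and from 1433 to 1724 CPM in DN+NaB. The 3687 CPM belonged to DN replicate 4, and the other DN libraries reached at most 1847 CPM. In DN 1 of the 10 lay wholly above NC, beside 5.86% of all tested genes. The 5 markers of lymph node or spleen summed to at most 1.42 CPM in any library.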

How the data were processed

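RNA-seq libraries of mouse renal cortex were compared, 4 in each of 3 groups, which the sample titles, disease states and treatments in the labels define. The deposited values are raw counts per gene symbol, not normalized by the authors. Per the submitters' processing notes, HISAT2 2.0.4 was among the tools; the counter, its strand setting, the annotation and the build were not given in the sources used here. Of 46095 symbols, 18156 had no count. The filter filterByExpr (by group) left 17530 genes, libraries were scaled with TMM factors, and all 12 entered 1 quasi-likelihood fit with group as the only term (edgeR 4.0.16, R 4.3.3, robust). Tests are two-sided with Benjamini-Hochberg adjustment over all tested genes in a comparison, and a gene was called at 0.05. CPM use the TMM factors, and log2 CPM a prior count of 2. The fit was tried on simulated counts of DN against NC with the same spread set for all genes. That trial does not cover the wider spread of the mitotic members. Libraries of a group always differed beyond sampling noise, with a chi-square per degree of freedom of at least 25.4. Within NC this value was 105 to 119 between replicate 4 and the other libraries, and 25.4 to 53.2 among those. Within DN it ran from 103 to 340.

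The members, the further lists and the tests were chosen with earlier results of these data known. Named with full statistics are called members, the 5 members of smallest p in each class and comparison, and Mki67, Top2a, Pcna, Mcm2, Cdk1, E2f1, Ccnd1, Ccne1, Ccnb1 and Cdkn1a; of other lists, called genes (up to 4) or the 2 of smallest p. Mcm4, Mcm7, Rrm1, Cdt1 and other members outside that rule are given to account for every member. Alternatives were other scalings and filters, DESeq2 1.42.0, a replicate block, only the 2 groups compared, each library left out, and, added after the data were seen, NC replicate 4 and DN replicate 4 both left out. Promoters are from RefSeq on GRCm38.p6 and exon lengths from GENCODE M21. Pclaf, Knl1, Sgo1 and Sgo2a were matched to older symbols through RefSeq synonyms.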

Additional observations from a re-analysis of the deposited data

Results flagged for a closer look

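In groups of 4 libraries, 19 of 138 gene and group combinations of the tested members held a library far from the other 3, where chance flags about 1 in 20, or 6.9. Since the mitotic members vary together, these combinations are not independent, and 19 beside 6.9 is not a test. Of the 19, 14 were NC replicate 4, the highest in each case. Among the mitotic members it stood at 12.3 CPM for Ccna2 (other NC libraries 3.70 to 5.01 CPM), 4.22 CPM for Ccnb1, 3.98 CPM for Birc5, 1.82 CPM for Bub1, 5.94 CPM for Bub1b, 5.49 CPM for Aurkb, 32.0 CPM for Mki67 (others 8.49 to 11.6 CPM), 20.4 CPM for Top2a, 9.02 CPM for Tpx2, 14.4 CPM for Kif20a and 8.79 CPM for Prc1. Among the S-phase members it stood at 16.6 CPM for Cdt1, 13.7 CPM for Pole and 1.33 CPM for Ccne2.

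The other 5 were spread over 3 libraries. DN replicate 2 was high for Cdc20 (10.1 CPM) and Aurkb (2.08 CPM), DN replicate 3 for Chaf1b (2.89 CPM), and DN+NaB replicate 1 for Aurka (4.12 CPM) and Foxm1 (7.74 CPM).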

How the results depend on the processing

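Every alternative kept the direction of both class medians in all 3 comparisons, and Mcm6 and Cdc6 were called lower in both comparisons with NC under all 20. Mcm3, Tyms, Uhrf1, Aurkb, Cenpf and Nusap1 were called in DN+NaB against NC under all 20 alternatives, and Cenpe under the 19 that tested it. In DN against NC, lower S-phase members numbered 4, or 5 with library size only or DESeq2 and 2 with only the 2 groups compared. They numbered 3 with the replicate block and with NC and DN replicate 4 both left out. Lower mitotic members numbered 1, or 5 with DESeq2 and 2 with only the 2 groups compared. They numbered 0 with the replicate block and with NC and DN replicate 4 both left out. Over all tested genes, calls in either direction in DN against NC numbered 1443 in the main fit and 1606 with library size only. They numbered 2145 with DESeq2, 1054 with only the 2 groups compared, 1416 with the block and 1823 with both libraries left out. In DN+NaB against NC, leaving out both libraries gave 5 S-phase and 7 mitotic members in place of 8 and 14, and the cause was not tested. There DESeq2 gave 10 and 17, library size only 10 and 15, and only the 2 groups compared also 10 and 15. The filter at 1 CPM gave 9 and 13, and no filter 7 and 10. Over all tested genes, calls in either direction in this comparison numbered 2729 in the main fit and 3232 with both libraries left out. They numbered 3560 with DESeq2, 2945 with library size only and 3966 with only the 2 groups compared. With the filter at 1 CPM they numbered 2527, and with no filter 2491. Leaving out 1 library gave 2 to 5 and 0 to 2 lower members in DN against NC, 0 to 0 in DN+NaB against DN, and 4 to 10 and 4 to 16 in DN+NaB against NC.

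No label says that replicate numbers pair libraries, and correlations of same-numbered libraries ran from -0.25 to 0.27. With the replicate block the counts were 0 mitotic members in DN against NC and 5 S-phase members in DN+NaB against NC. Over all tested genes the block gave 1416 and 2891 calls in either direction, in place of 1443 and 2729.

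Over all tested genes, DN+NaB against DN gave 4 calls, or 22 with RLE factors, 26 with library size only, 17 above 1 CPM in 4 libraries, 27 unfiltered, 257 with DESeq2, 7 with the block, 0 with only the 2 groups and 47 with both libraries left out, and 0 to 67 without 1 library. The other comparisons ran from 942 to 2145 (DN against NC, 1443) and from 1833 to 3966 (DN+NaB against NC, 2729).

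Small log2 fold changes that were not called turned sign. For Pcna in DN against NC the value was -0.059 with library size only and ran from -0.056 to 0.15 with 1 library left out. In DN+NaB against NC it was 0.063 with NC and DN replicate 4 both left out and ran from -0.14 to 0.063 with 1 library left out. For Mcm2 in DN+NaB against NC it was -0.088 with library size only, -0.0086 with the filter at 1 CPM, and ran from -0.026 to 0.092 with 1 library left out. In DN+NaB against DN, leaving out 1 library gave -0.87 to 0.40 for Ccnb1, -0.60 to 0.13 for Cdk1 and -0.17 to 0.064 for Ccnd1. Few counts limit Cdc45, Bub1 and Ccne1.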

Other observations

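The 10 genes outside the list whose levels were most like the mean log2 CPM of the mitotic members were Kif18b, Pbk, Hist1h2af, Clspn, Iqgap3, Ncaph, Espl1, Ckap2l, Knstrn and Sowaha, with Spearman rho from 0.94 to 0.98 over 12 libraries. Kif18b, Ncaph, Espl1 and Ckap2l are on the list of other mitosis genes and Clspn on that of other replication genes. For the S-phase members the 10 were Hmgb2, Fam124a, Tusc3, Plek2, Adgrl2, Chd5, Gli1, Chtf18, Sorcs3 and Slc28a2, with rho from 0.90 to 0.96. These values are descriptions: the libraries share groups and the high NC replicate 4, and the genes were picked as the highest of all tested.

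Each mitotic member followed the mean of its class, which contains it, with Spearman rho from 0.80 for Cenpe to 0.99 for Ccna2. Among the S-phase members rho ran from -0.62 for Tyms to 0.94 for Uhrf1. Pcna (0.08), Mcm7 (0.05), Pola1 (-0.07) and Rrm1 (-0.20) did not follow the mean of the class.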
